A study of Mus musculus with 7 samples.

Results

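The genes described here are 10 cytokine and receptor genes, taken by name out of the 55491 gene rows of the deposited single-cell matrix. Il2, Il15 and Il18 encode the cytokines interleukin-2 (IL-2), IL-15 and IL-18. Il2ra, Il2rb, Il2rg, Il7r, Il15ra and Il21r encode receptor chains of the family that shares the common gamma chain, and Il18r1 encodes the ligand-binding chain of the IL-18 receptor. Values are CPM, the unique molecular identifiers (UMIs, 1 per captured transcript) of the gene per 1000000 UMIs of the same cells. They were computed for each mouse within each of the 23 cell types named by the authors and within 9 broader classes of them. All 10 genes were detected, from 351 UMIs in 204 of 28644 cells for Il2 to 60628 UMIs in 13221 cells for Il2rb.

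IL-2, IL-7, IL-15 and IL-21 signal through receptors that share the common gamma chain, the product of Il2rg, and that activate the kinases JAK1 and JAK3 and the STAT transcription factors. IL-2 and IL-15 also share the beta chain, the product of Il2rb, and differ in the alpha chain. The IL-2 alpha chain CD25, from Il2ra, is a hallmark of regulatory T cells (Tregs), while the IL-15 alpha chain is known for presenting IL-15 on myeloid cells to neighbouring NK and T cells. IL-18 is made by myeloid cells as a precursor that the inflammasome protease caspase-1 cleaves, and it acts through a receptor of the Il18r1 and Il18rap chains that signals through MyD88. These axes sustain lymphocytes in tissues, including the brain, where resident microglia and infiltrating myeloid cells are the usual sources of IL-15 and IL-18.

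The study compared mice with and without an induced deletion of Siglece, an inhibitory sialic acid receptor, in microglia. The KO group (4 mice) carried the tamoxifen-inducible driver Sall1-CreERT2, an allele made on a B6;129 background, and floxed Siglece alleles made on B6.129P2. The WT group (3 mice) was described as having the floxed alleles with no Cre. Both groups were engrafted in the brain with 50000 CT-2A glioma cells, a mouse glioma line, at an age of 8 to 12 weeks. Both received 2.5 mg of tamoxifen per injection, daily between day 7 and day 21 and at wider spacing later. Cells of the tumour-bearing hemisphere went through freezing and thawing, and living ones with CD45, CD11b or both at the surface were sorted, so that levels describe sorted cells. Each mouse gave 1 droplet library of transcript 5′ ends.

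The libraries held 1410 to 5856 cells each, with medians of 4479 to 9554 UMIs per cell. The targeted transcript, Siglece, had 2, 1, 0 and 0 UMIs in the microglia of the 4 KO mice and 20, 19 and 7 in those of the 3 WT mice, or at most 19.6 CPM in KO and at least 18.6 in WT, so that these levels overlapped. In monocyte-derived cells it was at 41.0 to 48.7 CPM in KO and 26.6 to 52.9 in WT. Which part of the gene the floxed sites enclose was not given in the sources used here, and these 5′ counts may lie outside it. Microglia were few, at 113 cells in KO and 301 in WT. T cells made up 43.5% to 79.9% of each KO library and 10.6% to 33.8% of each WT library. A total of 460 cell barcodes occurred in at least 2 libraries (926 cells), and 8.04% of the pairs sharing one had the same cell type name. Cells named Tregs held Foxp3 at 525 CPM, and cells named NK cells held Ncr1 at 366. The markers of the cells named cDC2 (type 2 conventional dendritic cells) bore out that name only in part. The dendritic cell markers Flt3 and Zbtb46 were highest in them, at 257 and 176. Cd209a was at 0.138 in them and highest in monocyte-derived dendritic cells, at 49.2. Ccr7 and Fscn1, genes of mature migrating dendritic cells, were at 3771 and 5286 in the cells named cDC2. They are called Ccr7-high dendritic cells below.

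**Figure D1:**
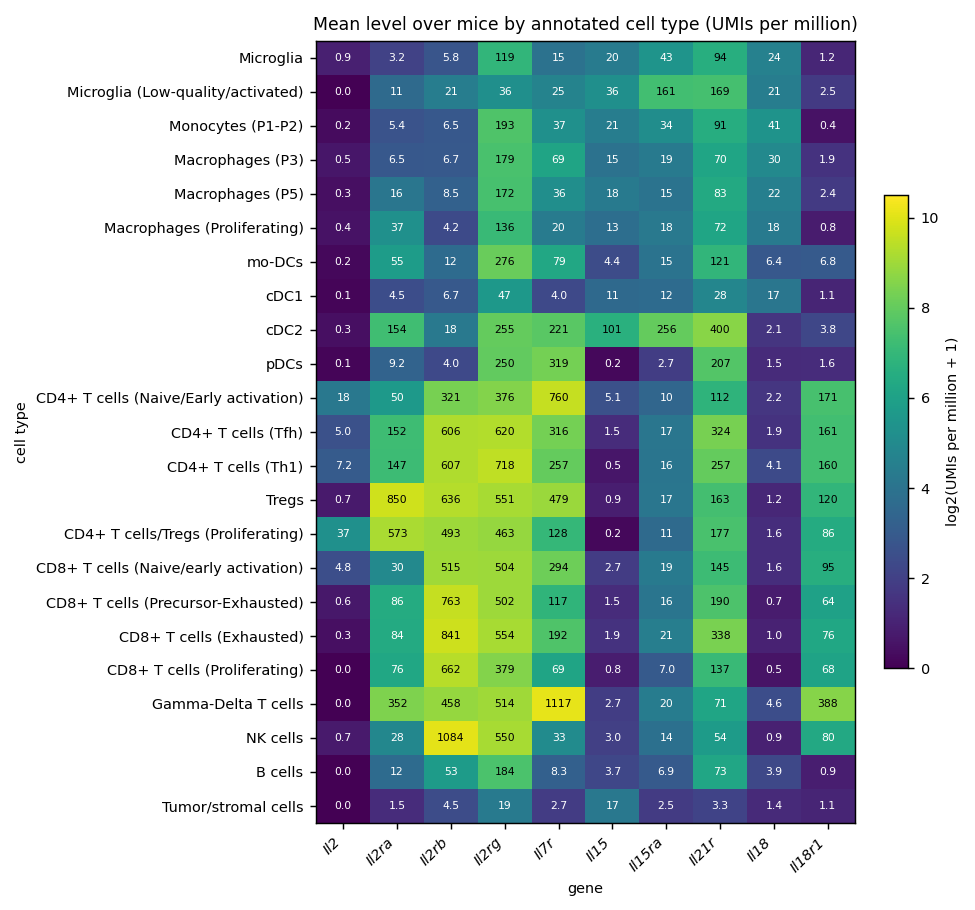
Mean level of the 10 genes (columns) in the 23 cell types named by the authors (rows), in CPM, printed in each cell and coloured on a log2(CPM + 1) scale; means are over the mice of both genotypes with at least 20 cells of the type, and "cDC2" is the name given by the authors. Il15 and Il15ra peak in the cells named cDC2, Il2ra in Tregs and Il2rb in NK cells.

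Il2, the gene of the growth factor that activated helper T cells secrete, was rare. T cells held 90.3% of its UMIs. The highest mean was in proliferating CD4+ T cells and Tregs, at 37.1 ± 38.8 CPM (SD, n = 6), where the mice with at least 20 such cells had 0, 66.6, 45.9 and 4.98 in the KO mice and 95.5 and 9.61 in the WT mice. This level rested on a few cells. A single proliferating cell of WT mouse 2 held 86 Il2 UMIs among 8726, which was 24.5% of all Il2 UMIs in the matrix, and 10 cells together held 48.7%. Without the 3 cells with the most Il2 UMIs, the mean in proliferating CD4+ T cells and Tregs was 12.2, below the 17.5 ± 17.1 (n = 7) of naive or early activated CD4+ T cells. Those naive or early activated cells had Il2 levels of 54.1, 15.7, 10.9 and 7.33 in the KO mice and 6.51, 21.8 and 6.45 in the WT mice, and the groups overlapped. The 54.1 of KO mouse 1 came from 5 UMIs in 29 cells. All 3 cells left out were of the proliferating type, so that the order of these types is not settled. Th1 cells followed at 7.18 ± 5.03 (n = 6), follicular helper-like (Tfh) cells at 5.04 ± 6.24 (n = 6) and naive or early activated CD8+ T cells at 4.76 ± 2.42 (n = 7). The gap below these 5 types was larger than the SDs of its neighbours, and the gaps within them were not.

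Some of the Il2 values were not whole numbers. These were 44.1% of its values above 0, and they carried 13.7% of its UMIs. Counting whole values only, Il2 was present in 27 of 786 naive or early activated CD4+ T cells, 13 of 414 proliferating CD4+ T cells and Tregs, 25 of 1249 Th1 cells, 13 of 1364 Tfh cells and 21 of 1502 naive or early activated CD8+ T cells. The 1058 Tregs, 1549 exhausted CD8+ T cells, 475 proliferating CD8+ T cells and 219 γδ T cells held no whole value. For the Tregs, 0 of 1058 allows up to 0.284% of cells with a whole Il2 UMI, which is no limit on cells that express the gene, and 3 Tregs held fractional values of 1.50 UMIs in all. Myeloid types held at most 2 cells with a whole Il2 value each, for example 2 of 3459 in Macrophages (P5). Limits and intervals given here cover counting error only.

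The Il2 gene lies on chromosome 3 (37120523 to 37125959, minus strand, build GRCm38). Its promoter is shown because it is the textbook inducible promoter of this family, read by NFAT factors after T cell receptor signalling, and because Il2 was present in 0.712% of cells here. The 245 bases before the annotated gene start (chr3:37125960-37126204, minus strand) are printed 5′ to 3′, from a RefSeq window of 250 bases on GRCm38.p6. Capitals mark GGAAA, the core that NFAT binds, on either strand.
Il2: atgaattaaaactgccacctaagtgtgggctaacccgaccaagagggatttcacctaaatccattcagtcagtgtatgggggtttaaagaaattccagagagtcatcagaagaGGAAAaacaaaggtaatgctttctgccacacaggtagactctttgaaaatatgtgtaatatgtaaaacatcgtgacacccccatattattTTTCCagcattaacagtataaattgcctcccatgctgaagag
The 2 matches begin 137 and 47 bases before the RefSeq start, which lies past the end of the printed bases. GGAAA occurred in 55.6% of 32851 mouse promoter windows of 250 bases, so that such a match is common. Windows of RefSeq promoters were found for 8 of the 10 genes, and Il2rb and Il15 were the others.

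Il15, the gene of the cytokine that sustains NK cells and memory CD8+ T cells, was found mainly in myeloid cells. Its highest level was in Ccr7-high dendritic cells, at 101 ± 23.3 CPM (SD, n = 7), and the gap to the next type was larger than the SDs of both. The values in these cells were 96.3, 122, 84.9 and 65.2 in the KO mice and 136, 102 and 100.1 in the WT mice. The lowest was in KO mouse 4 and the highest in WT mouse 1, and the groups overlapped. Activated or low-quality microglia had 36.3 ± 21.7 (n = 5, from 1 to 7 UMIs per mouse), Monocytes (P1-P2) 20.8 ± 7.33 (n = 7) and Macrophages (P5) 18.5 ± 4.15 (n = 7). Conventional dendritic cells together held 42.7% of all Il15 UMIs and monocyte-derived cells 41.5%. Tumour or stromal cells held 6.31%, with a mean of 17.3 ± 7.25 (n = 5), and T cells held 2.81%. Plasmacytoid dendritic cells (pDCs) held 1 Il15 UMI in all.

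Il15ra, the gene of the alpha chain that carries IL-15 to neighbouring cells, had its highest level in the same cells. Ccr7-high dendritic cells had 256 ± 22.7 CPM (SD, n = 7), with 263, 288, 233 and 238 in the KO mice and 282, 254 and 235 in the WT mice. These 7 values lay within a narrow range and the groups overlapped. Activated or low-quality microglia followed at 161 ± 59.0 (n = 5), and the cells named Microglia had 42.8 ± 23.0 (n = 3). All T and NK cell types lay between 6.96 and 21.4. With every cell thinned to 2000 UMIs and shallower cells left out (35 of 954), 19.9% of Ccr7-high dendritic cells had an Il15 UMI, 39.5% an Il15ra UMI and 9.68% both. The joint share was 1.23 times the product of the single shares and lay above it in 6 of 7 mice. Of NK cells at the same depth, 0.707% had an Il15 UMI and 1.77% an Il15ra UMI. Unthinned, the shares were 46.6% and 72.2% in Ccr7-high dendritic cells (median 6439 UMIs) and 1.32% and 8.80% in NK cells (median 5126 UMIs).

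Il15ra lies next to Il2ra on chromosome 2, with 12096 bases between the annotated genes (GENCODE M21, GRCm38). Both promoters are shown because the 2 neighbouring alpha chains of 1 receptor family had their highest levels in different cells, Tregs for Il2ra and Ccr7-high dendritic cells for Il15ra. They are printed 5′ to 3′ on the plus strand, with GGAAA on either strand in capitals, for chr2:11642542-11642791 (Il2ra) and chr2:11705043-11705289 (Il15ra).
Il2ra: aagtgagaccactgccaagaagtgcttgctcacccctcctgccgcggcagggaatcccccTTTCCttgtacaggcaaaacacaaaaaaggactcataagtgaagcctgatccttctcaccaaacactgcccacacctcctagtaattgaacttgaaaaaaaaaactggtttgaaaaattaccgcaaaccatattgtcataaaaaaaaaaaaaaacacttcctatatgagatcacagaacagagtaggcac
Il15ra: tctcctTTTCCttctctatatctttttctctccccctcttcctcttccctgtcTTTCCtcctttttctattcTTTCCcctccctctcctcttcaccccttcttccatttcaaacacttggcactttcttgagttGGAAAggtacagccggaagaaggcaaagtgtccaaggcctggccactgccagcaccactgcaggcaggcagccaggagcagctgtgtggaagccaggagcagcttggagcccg
The Il2ra window held 1 match, at 190 bases before the start, and the printed Il15ra window held 4, at 244, 197, 178 and 116 bases. These positions are counted from the RefSeq start, which for Il15ra lies past the end of the printed bases. A 2nd RefSeq start site of Il15ra had a window with 0 matches. A STAT site written as TTCNNNGAA, searched on both strands, was in none of these windows and in 7.02% of all windows.

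Il18, the gene of the IL-18 precursor, was highest in Monocytes (P1-P2), at 40.6 ± 9.85 CPM (SD, n = 7). The 7 values there were 22.8, 31.3, 42.9 and 44.9 in the KO mice and 44.3, 49.6 and 48.4 in the WT mice. KO mouse 1 was the lowest, and KO mouse 4 lay above WT mouse 1, so that the groups overlapped. Macrophages (P3) had 29.8 ± 12.2 (n = 7), Microglia 23.7 ± 7.87 (n = 3, from 6 to 9 UMIs per mouse) and Macrophages (P5) 22.2 ± 7.72 (n = 7). The gap between neighbours in this order was within their SDs. In Macrophages (P5), KO mouse 1 had 6.95 against 26.4, 27.9 and 25.7 in the other KO mice. Dendritic cells split by type. The cells named cDC1 (type 1 conventional dendritic cells, with Xcr1 at 341) had 16.6 ± 5.16 (n = 7) and Ccr7-high dendritic cells 2.11 ± 1.65 (n = 7). Il18 and Il15 thus had their maxima in different myeloid cells, and monocyte-derived cells held 66.1% of Il18 UMIs.

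**Figure D2:**
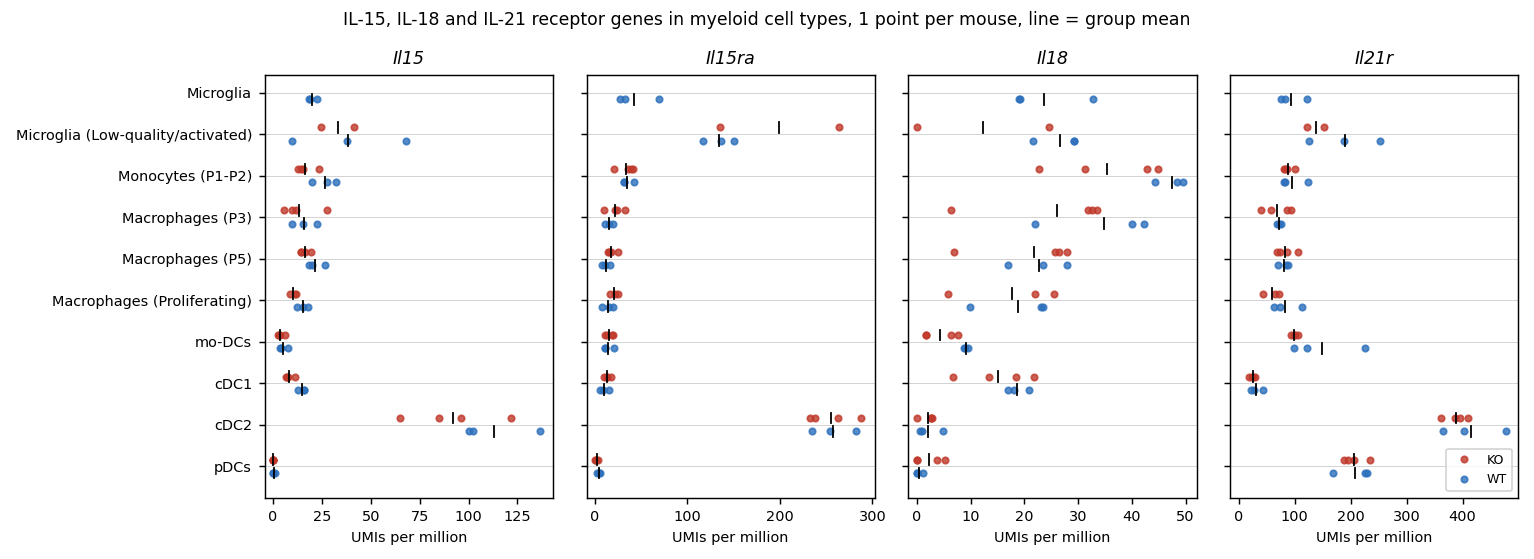
Levels of Il15, Il15ra, Il18 and Il21r (x axes, CPM, scale differs by panel) in 10 myeloid cell types, with 1 point per mouse with at least 20 cells of the type, red for KO and blue for WT, and a line at each group mean. Il15, Il15ra and Il21r are highest in the cells named cDC2, and Il18 in Monocytes (P1-P2).

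Il2ra, the gene of CD25, was highest in Tregs, at 850.2 ± 187 CPM (SD, n = 6). Their values were 1088, 754, 617 and 761 in the KO mice and 818 and 1063 in the WT mice, and the groups overlapped. WT mouse 1 had 5 Tregs and is left out. Proliferating CD4+ T cells and Tregs followed at 573 ± 124 (n = 6) and γδ T cells at 352 ± 118 (n = 4). Each of these 3 gaps was larger than the SDs of the types on its sides. Ccr7-high dendritic cells, Tfh and Th1 cells lay together at 154 ± 63.0 (n = 7), 152 ± 58.4 (n = 6) and 147 ± 54.0 (n = 6). NK cells had 27.9 ± 11.7 (n = 7), naive or early activated CD8+ T cells 29.7 ± 12.8 (n = 7) and tumour or stromal cells 1.49 ± 1.64 (n = 5).

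Il7r, the gene of the IL-7 receptor alpha chain that keeps naive and memory T cells alive, was highest in γδ T cells, at 1117 ± 434 CPM (SD, n = 4). Only 1 KO mouse had 20 γδ T cells, at 1658, and the WT mice had 784, 1278 and 750.1. Naive or early activated CD4+ T cells had 759.7 ± 231 (n = 7), and the gap to γδ T cells was within the SD of the latter. In the WT mice naive or early activated CD4+ T cells had 456 to 883, which overlapped the γδ values of these mice. Tregs had 479 ± 75.5 (n = 6). pDCs, at 319 ± 52.5 (n = 7), did not differ from Tfh cells, at 316 ± 80.8 (n = 6), beyond their SDs. Within CD8+ T cells the mean was 294 in naive or early activated, 192 in exhausted, 117 in precursor-exhausted and 68.7 in proliferating cells. NK cells had 32.8 ± 13.5 (n = 7). Its ligand gene Il7 had 99 UMIs in the whole matrix, and its highest mean was in tumour or stromal cells at 4.57 ± 3.07 (n = 5).

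Il21r, the gene of the IL-21 receptor chain known from B and T cell help, spread over lymphoid and myeloid cells. Ccr7-high dendritic cells had 399.7 ± 38.6 CPM (SD, n = 7), with 396, 361, 387 and 410.1 in the KO mice and 477, 403 and 364 in the WT mice. Exhausted CD8+ T cells followed at 338 ± 85.3 (n = 6) and Tfh cells at 324 ± 95.3 (n = 6), and the gaps between these neighbours were within their SDs. The cells named cDC1 had 27.6 ± 8.21 (n = 7), the lowest mean of the dendritic cell types. Its ligand gene Il21 was highest in Tfh cells, at 58.6 ± 22.0 (n = 6), and in Th1 cells, at 32.4 ± 22.5 (n = 6). Microglia had Il21r levels of 122, 83.5 and 76.5 in the WT mice, the group with at least 20 cells so named in each mouse.

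Il18r1 was a T and NK cell transcript, with 91.4% of its UMIs in T cells and 5.04% in NK cells. γδ T cells had 388 ± 226 CPM (SD, n = 4), with 715 in KO mouse 1 and 220.4, 356 and 259 in the WT mice. KO mouse 1 was the highest of these 4 mice, and without a second KO mouse the genotypes were not compared. Naive or early activated CD4+ T cells had 171 ± 34.1 (n = 7), Tfh cells 161 ± 25 (n = 6), Th1 cells 160.1 ± 47.7 (n = 6) and NK cells 79.6 ± 31.2 (n = 7). Monocytes (P1-P2) had 0.417 ± 0.647 (n = 7), from 5 UMIs. Il18rap, the signalling partner chain that lies 14507 bases from Il18r1 on chromosome 1, was highest in Tfh cells at 106 ± 21.8 (n = 6), Th1 cells at 105 ± 36.2 (n = 6) and NK cells at 95.8 ± 32.4 (n = 7). The IL-18 decoy gene Il18bp was highest in Macrophages (P5), at 83.5 ± 31.2 (n = 7).

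Il2rb, the gene of the beta chain shared by the IL-2 and IL-15 receptors, was highest in NK cells, at 1084 ± 142 CPM (SD, n = 7). The NK values were 1114, 956, 1216 and 1161 in the KO mice and 1273, 927 and 941 in the WT mice, and the groups overlapped. Exhausted CD8+ T cells had 841 ± 212 (n = 6), precursor-exhausted CD8+ T cells 763 ± 132 (n = 7) and Tregs 636 ± 108 (n = 6). The gap below NK cells was larger than the SDs, and those among the next 5 types were not. T and NK cells together held nearly all of its UMIs, 86.9% and 10.7%, and the myeloid types had means of 3.97 to 20.6. At 2000 UMIs per cell (60 of 909 NK cells were shallower), 84.8% of NK cells and 0.522% of tumour or stromal cells had an Il2rb UMI. The unthinned shares were 95.7% and 4.95%, at median depths of 5126 and 20569 UMIs.

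Il2rg, the gene of the common gamma chain itself, had UMIs in 70.6% of all cells. It was highest in Th1 cells, at 718 ± 90.6 CPM (SD, n = 6), where the mice had 662, 748, 598 and 667 in the KO mice and 808 and 826 in the WT mice. Tfh cells had 620.3 ± 57.6 (n = 6), and the other T and NK cell types lay between 376 and 554. Among myeloid cells mo-DCs (monocyte-derived dendritic cells) had 276 ± 39.9 (n = 7), and the cells named cDC1 47.4 ± 4.30 (n = 7). Activated or low-quality microglia had 36.1 ± 8.60 (n = 5) and tumour or stromal cells 18.6 ± 5.72 (n = 5).

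**Figure D3:**
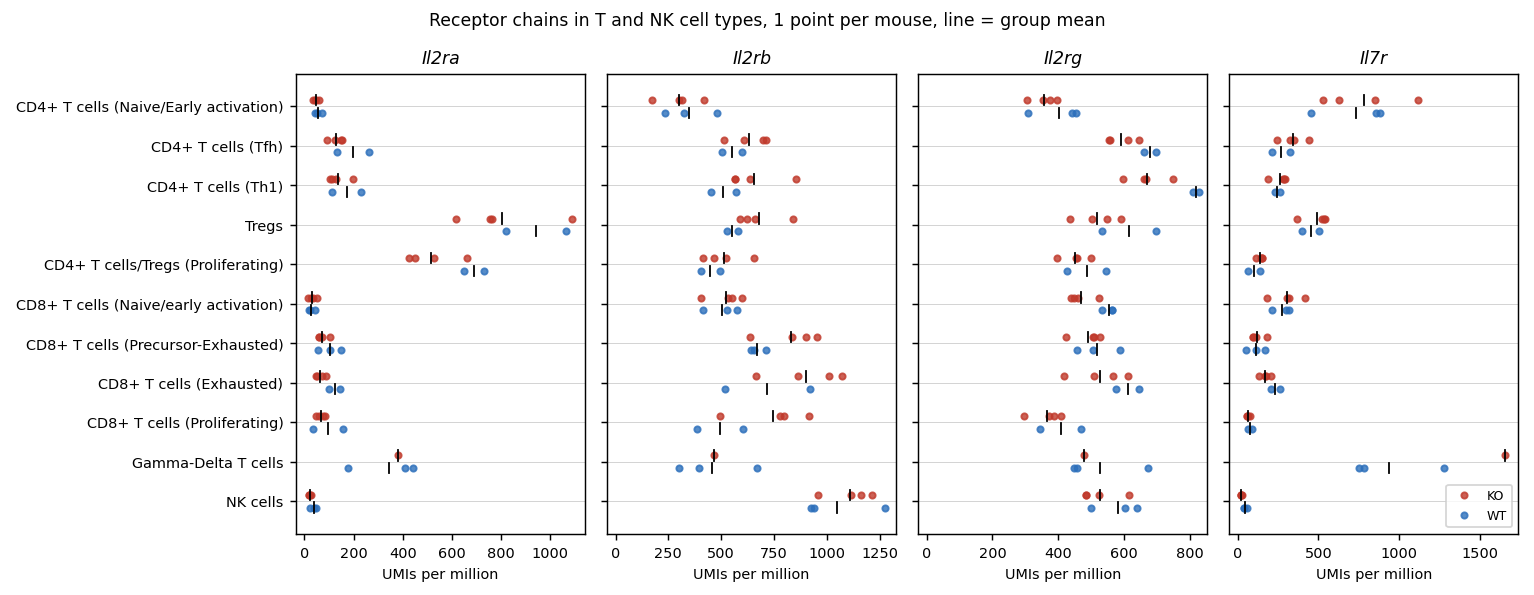
Levels of Il2ra, Il2rb, Il2rg and Il7r (x axes, CPM, scale differs by panel) in 11 T and NK cell types, with 1 point per mouse with at least 20 cells of the type, red for KO and blue for WT, and a line at each group mean. Il2ra has its highest means in Tregs, proliferating CD4+ T cells and Tregs, and γδ T cells, with points of the last 2 overlapping, Il2rb is highest in NK cells, and the means of Il2rg lie between 376 and 718 in all 11.

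Chains of 1 receptor were also counted in the same cells, each thinned to 2000 UMIs. Both Il2ra and Il2rb were detected in 42.1% of 947 Tregs (95% interval 39.0% to 45.4%, exact binomial), which was 1.01 times the product of the single shares. Unthinned, the joint share in Tregs was 62.7%. Il2rb and Il2rg were both detected in 51.6% of 849 NK cells, 1.00 times the product, and Il7r with Il2rg in 45.7% of 186 γδ T cells, 0.968 times the product. For these 3 pairs detection in the same cell was close to what the single shares give. In γδ T cells, by contrast, Il2ra and Il2rb were both detected in 29.6% of cells, 1.20 times the product and above it in 4 of 4 mice. The chains of the IL-18 receptor, Il18r1 and Il18rap, were both detected in 2.43% of 5029 precursor-exhausted CD8+ T cells, 1.86 times the product and above it in 6 of 7 mice. The ratio was 1.78 in exhausted CD8+ T cells and 1.50 in Th1 cells, where it was above 1 in 6 of 6 mice. Unthinned, these 3 ratios were 1.60, 1.56 and 1.29. In Ccr7-high dendritic cells, Il2ra and Il7r were both detected in 10.7% of cells, 1.35 times the product and above it in 7 of 7 mice. These ratios are descriptions of cells that differ in more than the pair of genes, and they were given no test.

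Across the 23 cell types, the 3 genes whose level was most like that of each of the 10 were found by the Pearson correlation of log2(CPM + 1). For Il2rb they were Sh2d2a at 0.985, Skap1 at 0.975 and Gm19585 at 0.972, of which Sh2d2a and Skap1 are adaptors of T cell signalling. For Il18r1 they included Gata3 at 0.977 and Trbc2 at 0.974, of which Gata3 is a transcription factor and Trbc2 a receptor constant gene of T cells. For Il7r they were Stat5b at 0.903, Pnrc1 at 0.887 and Atp2b4 at 0.873, the first being a transcription factor of this pathway. Those of Il2ra were Isy1 at 0.871, Ikzf4 at 0.862 and Slc22a15 at 0.860, and Ikzf4 is known from Tregs. Those of Il2rg were Nmb at 0.910, Gm45713 at 0.907 and Vps28 at 0.889, and those of Il21r Samsn1 at 0.866, H2-Q5 at 0.840 and Pbxip1 at 0.839. The genes nearest to Il15 were Marcks at 0.912, Specc1 at 0.907 and Anxa3 at 0.902, to Il15ra Pfkfb3 at 0.900, Pik3r1 at 0.854 and Rassf2 at 0.853, and to Il18 Slc31a2 at 0.942, P2ry6 at 0.928 and Lrrc25 at 0.922. The genes nearest to Il2, Trav6-7-dv9 at 0.824, Trav14d-1 at 0.810 and Trav14n-1 at 0.810, were T cell receptor variable segments. Among the 10 genes themselves the highest correlation was 0.936, between Il18r1 and Il2rb, and Il15 and Il15ra correlated at 0.621. The nearest genes were taken from 10996, and the points share libraries, depth and 1 clustering, so no p is given.

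The genotype comparison asks whether deleting Siglece in microglia came with other levels of these genes in any class of cells. Each mouse's UMIs in a class were added up, and the sums were fitted in edgeR (quasi-likelihood test, Benjamini-Hochberg adjustment over all genes of the class). None of the 57 tested pairs of gene and class was called at an adjusted p under 0.05, against 0.0111% of all pairs. At an unadjusted p under 0.05 there were 18 of the 57 (31.6%), 10 higher and 8 lower in KO, against 6.64% of all pairs (3.31% higher and 3.33% lower). The filter on low counts kept a gene when as many mice as the smaller group holds reached the CPM of 10 UMIs in the median library. Of the 18 pairs, 9 met it only through the group in which they were higher, and so did 18.2% of all pairs at such a p, so that the 31.6% is no support for a difference. Among the 46 pairs not kept in that way 9 were at such a p (19.6%), against 5.96% of all such pairs. DESeq2 called 1 of the 57, Il2rb in conventional dendritic cells, against 0.167% of all pairs, and 16 were at an unadjusted p under 0.05, against 4.47% of all pairs in DESeq2. Within single cell types none of 134 pairs was called, against 0.0166% of all pairs, and 19 (14.2%; 9 higher and 10 lower in KO) were at an unadjusted p under 0.05, against 5.43% (2.68% higher and 2.76% lower). Of these 19, 7 met the filter only through the group in which they were higher. Among the 119 others it was 12 (10.1%), against 4.82%. DESeq2 called 1 of these 134, Il2rb in the cells named cDC1, against 0.0836% of all pairs, and 17 were at an unadjusted p under 0.05, against 2.95% of all pairs in DESeq2. Both DESeq2 calls were of pairs that met the filter only through the KO mice. Without the filter on low counts edgeR called 5 of 87 pairs of gene and class, against 0.264% of all pairs, and 9 of 203 pairs of gene and cell type, against 0.291%. The 18 and 19 pairs are not independent, since the fits share mice, 5 of the classes are a single cell type, and 7 of the 18 were Il2rb or Il18r1 in classes other than T, NK and B cells. Of the 57 pairs, 27 were lower in KO, with a median log2 fold change of 0.03. The medians over all genes of a class lay between -0.01 and 0.01. Whether the mice of a group are separate litters or cohorts was not given in the sources used here, so p-values measure the spread between these mice.

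In T cells the Il2ra levels were 216, 142, 80.2 and 130.4 in the KO mice and 287, 259 and 259 in the WT mice. All KO values lay below all WT values, but the adjusted p did not pass (log2 fold change of KO over WT -0.87, SE 0.29, unadjusted p = 0.0152, adjusted p = 0.721). The makeup of the T cells differed between mice beside it. Tregs were 3.32% to 10.7% of T cells in KO and 1.61%, 16.4% and 4.44% in WT, γδ T cells were 0.290% to 4.40% and 25.7%, 3.32% and 2.30%, and precursor-exhausted CD8+ T cells 23.5% to 53.8% and 6.75%, 10.6% and 35.4%. Within single T cell types the Il2ra log2 fold change was below 0 in 8 of 9, with a median of -0.43, but without WT mouse 3 in 4 of 9, with a median of 0.01. The 9 types come from the same mice, and of the 5021 genes fitted in all 9 of them 23.4% lay to one side of 0 in at least 8. In exhausted CD8+ T cells Il2ra was at 87.9, 72.1, 48.9 and 50.6 in the KO mice and 101 and 145 in the WT mice, with no overlap and WT mouse 1 left out at 9 cells (log2 fold change of KO over WT -1.16, SE 0.26, unadjusted p = 4.50e-04, adjusted p = 0.476). Without the filter on low counts this pair was called, with an adjusted p of 0.0212 in edgeR. In that setting 0.291% of all pairs of gene and cell type were called, against 0.0166% with the filter. The sum of 6 NK cell markers in exhausted CD8+ T cells was 1014, 584, 326 and 454 CPM in the KO mice. In the WT mice it was 1035 and 2287, also with no overlap and lower in KO. In proliferating CD8+ T cells the sum was 315 to 1499 in KO and 774 to 2732 in WT. In Tregs it was 46.3 to 108 and 63.8 to 116. The sum thus differed among T cell types and is no measure of NK cells alone. The part of these markers in the Il2ra levels was not tested. In proliferating CD4+ T cells and Tregs the Il2ra log2 fold change was -0.43 ± 0.18 (SE, adjusted p = 1.00), and in Tregs -0.23 ± 0.21 (SE, adjusted p = 0.983). Neither of these was called.

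Il2rb in T cells ran the other way, at 780.3, 565, 813 and 816 in the KO mice and 615, 479.6 and 611 in the WT mice. KO mouse 2 lay below 2 of the WT mice, so that the groups overlapped (log2 fold change of KO over WT 0.42, SE 0.17, unadjusted p = 0.0358, adjusted p = 0.731). In the 9 T cell types fitted it was above 0 in 8, with a median of 0.26, and in 6 without WT mouse 2. Il18r1 was above 0 in 7 of 9, with a median of 0.24, and in 5 without KO mouse 1. Il2rg was below 0 in 9 of 9, with a median of -0.20, and in 6 without WT mouse 2, while 7.97% of the genes fitted in all 9 types lay to one side of 0 in each. Exhausted CD8+ T cells had Il7r at 169, 173, 206 and 132 in the KO mice and 262 and 206 in the WT mice, with a log2 fold change of -0.47 ± 0.21 (SE, adjusted p = 0.969). Il18r1 had a log2 fold change of 0.76 ± 0.30 (SE, adjusted p = 0.903) in Tregs and 0.54 ± 0.21 (SE, adjusted p = 1.00) in Th1 cells, and Il21r -0.52 ± 0.24 (SE, adjusted p = 1.00) in Tfh cells, all with overlapping groups. Il15 and Il18 were also at an unadjusted p under 0.05 in T cells, at levels of at most 3.54 and 3.39 CPM, with log2 fold changes of -1.10 ± 0.47 (SE, adjusted p = 0.750) and -1.18 ± 0.42 (SE, adjusted p = 0.721). The T cell sums held 3 to 24 UMIs of each gene per mouse. Both genes met the filter on low counts only through the WT mice, where they were higher, so that these fold changes support nothing. Both genes were higher in myeloid cells, and the T cells made up less of the WT libraries. The sum of 9 monocyte and macrophage markers in T cells was 996, 1242, 486 and 998 in the KO mice and 1318, 1050.4 and 1187 in the WT mice, in CPM, lowest in KO mouse 3 and highest in WT mouse 1, with overlap. Of these markers, Ccr2 was highest in γδ T cells, Plac8 in pDCs and Vcan in tumour or stromal cells. The sum is thus not particular to monocytes and macrophages. The part of myeloid transcripts in the low Il15 and Il18 values was not tested.

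In NK cells the Il7r levels were 18.0, 23.0, 22.9 and 28.2 in the KO mice and 55.4, 40.2 and 42.2 in the WT mice. The groups did not overlap, and the pair was not called (log2 fold change of KO over WT -0.97, SE 0.28, unadjusted p = 0.00228, adjusted p = 1.00). Il2ra in NK cells was 25, 18.0, 18.0 and 22.1 in the KO mice and 48.0, 23.4 and 40.7 in the WT mice, with overlap (log2 fold change of KO over WT -0.85, SE 0.30, unadjusted p = 0.0108, adjusted p = 1.00). The summed T cell markers in NK cells were 238 to 472 in KO and 328 to 924 in WT CPM, highest in WT mouse 2. In NK cells the 9 monocyte and macrophage markers summed to 897, 1111, 704 and 881 in the KO mice and 1338, 1186 and 1176 in the WT mice, in CPM, without overlap and lower in KO, as Il7r was. Ccr2, Plac8 and Vcan of this list were highest in other cell types, as given above. The part of either marker list in the Il7r and Il2ra values was not tested. Il2rb in NK cells had a log2 fold change of 0.07 ± 0.16 (SE, adjusted p = 1.00).

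**Figure D4:**
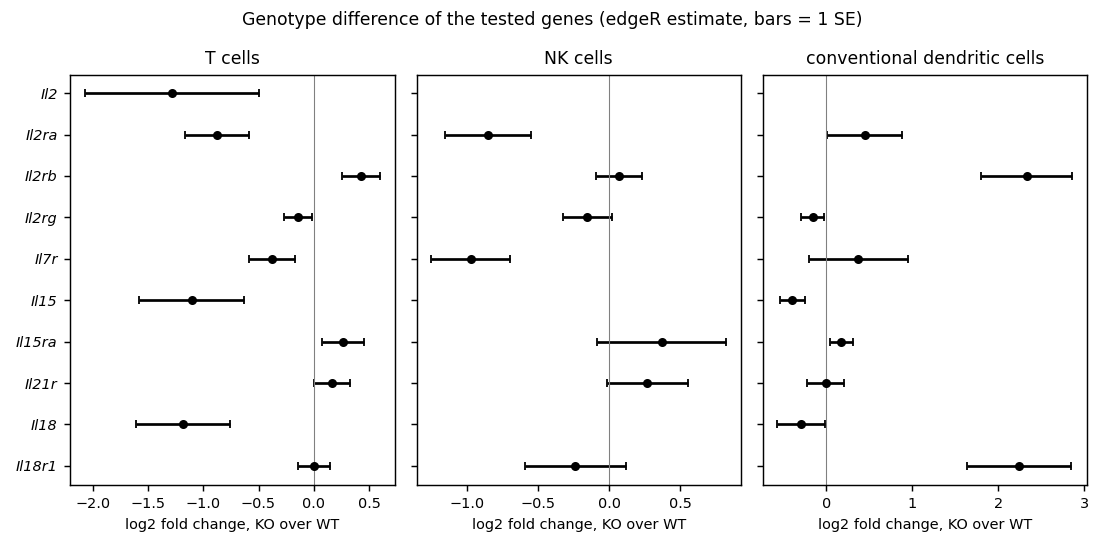
Log2 fold change of KO over WT (x axis, points) with 1 SE on each side (bars), from edgeR, for those of the 10 genes tested in T cells, NK cells and conventional dendritic cells; a gene with no point was below the filter on low counts, and the vertical line marks 0. None of these was called at an adjusted p under 0.05, and the largest values are those of Il2rb and Il18r1 in conventional dendritic cells, both kept by the filter only through the KO mice, with 0 to 5 Il18r1 UMIs in each WT mouse. Il15 and Il18 in T cells were kept only through the WT mice.

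Among the largest fold changes were those of Il2rb and Il18r1 in cells where both were at low levels. Among the dendritic, mo-DC and monocyte-derived cells, Il2rb in monocyte-derived cells met the filter on low counts in both groups. The others met it only through the KO mice, where they were higher, so that their fold changes are descriptions and support nothing. In conventional dendritic cells Il2rb was at 25.2, 13, 9.85 and 10.8 in the KO mice and 0.620, 2.65 and 4.63 in the WT mice, with no overlap (log2 fold change of KO over WT 2.33, SE 0.53, unadjusted p = 0.00175, adjusted p = 0.570). Without WT mouse 3 this log2 fold change was 2.96 ± 0.58 (SE, adjusted p = 0.667), the highest of the alternatives, which reached down to 1.90. In mo-DCs it was at 7.62, 12.3, 9.67 and 38.2 in the KO mice and 5.96, 2.82 and 5.10 in the WT mice, where KO mouse 4 stood apart (log2 fold change of KO over WT 1.91, SE 0.66, unadjusted p = 0.0193, adjusted p = 0.590). Without KO mouse 4 the log2 fold change in mo-DCs was 1.10 ± 0.36 (SE, adjusted p = 0.514). In monocyte-derived cells it was at 9.40, 7.76, 13.2 and 9.23 in the KO mice and 2.39, 5.82 and 5.60 in the WT mice, also with no overlap (log2 fold change of KO over WT 1.10, SE 0.34, unadjusted p = 0.0105, adjusted p = 0.827). Within single cell types Il2rb had a log2 fold change of 2.74 ± 0.42 (SE, adjusted p = 0.196) in the cells named cDC1, 0.97 ± 0.35 (SE, adjusted p = 0.890) in Macrophages (P3) and 1.16 ± 0.40 (SE, adjusted p = 0.698) in Macrophages (P5). These 3 cell type pairs also met the filter only through the KO mice, and the value in the cells named cDC1 rested on 1, 9 and 12 UMIs in the WT mice. Il18r1 was also low in these classes. In mo-DCs it was at 9.96, 12.6, 7.86 and 8.81 in the KO mice and 2.23, 4.23 and 2.19 in the WT mice, with no overlap and a log2 fold change of 1.67 ± 0.36 (SE, adjusted p = 0.490), on 3 to 12 UMIs in each WT mouse. In monocyte-derived cells it was at 3.42, 3.00, 1.08 and 2.49 in the KO mice and 0.894, 1.74 and 1.12 in the WT mice, with overlap and a log2 fold change of 1.05 ± 0.42 (SE, adjusted p = 0.831). In conventional dendritic cells it was at 3.60, 2.46, 2.38 and 2.58 in the KO mice and 0.827, 0.780 and 0 in the WT mice, from 6, 17, 7 and 15 UMIs in KO and 4, 5 and 0 in WT, with a log2 fold change of 2.24 ± 0.60 (SE, adjusted p = 0.637).

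T cell markers were also higher in KO in these classes. The sum of the 8 T cell markers was 64.5 to 112 in KO and 8.47 to 34.6 in WT in conventional dendritic cells, 63.5 to 211 in KO and 19.4 to 44.4 in WT in mo-DCs and 49.6 to 79.9 in KO and 14.1 to 31.8 in WT in monocyte-derived cells, in CPM. In none of these classes did the groups overlap. Within KO the order of mice did not always match that of Il18r1. In mo-DCs KO mouse 4 had the highest sum (211) with Il18r1 at 8.81, below KO mouse 1 and KO mouse 2. In monocyte-derived cells KO mouse 3 had the highest sum (79.9) and the lowest Il18r1 (1.08). In conventional dendritic cells KO mouse 1 was the highest in both. Relative to the summed UMIs of Cd3d, Cd3e and Cd3g (3 genes of that list chosen after its values were seen), Il2rb had 0.292 UMIs in KO and 0.283 in WT in conventional dendritic cells, 0.272 and 0.292 in mo-DCs, and 0.272 and 0.333 in monocyte-derived cells. In T cells themselves this ratio was 0.227 in KO and 0.186 in WT. For Il18r1 the ratio was 0.0587 in KO and 0.0542 in WT in conventional dendritic cells, 0.146 and 0.198 in mo-DCs, and 0.0733 and 0.0907 in monocyte-derived cells. In T cells it was 0.0298 in KO and 0.0336 in WT, below each of these. In tumour or stromal cells Il2rb was at 10.3 and 10.9 in the 2 KO mice with at least 20 cells and at 0, 0 and 1.26 in the WT mice, from 21 and 13 UMIs against 0, 0 and 3, with a T cell marker sum of 52.6 to 74.0 in KO and 3.82 to 8.82 in WT. Il21r there was at 6.88 and 7.57 in those KO mice and 0, 1.34 and 0.840 in the WT mice, from 14 and 9 UMIs against 0, 2 and 2. Both genes were tested in these cells only through the KO mice, where they were higher, so no fold change is given. The part of T cell transcripts in these values was not tested.

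**Figure D5:**
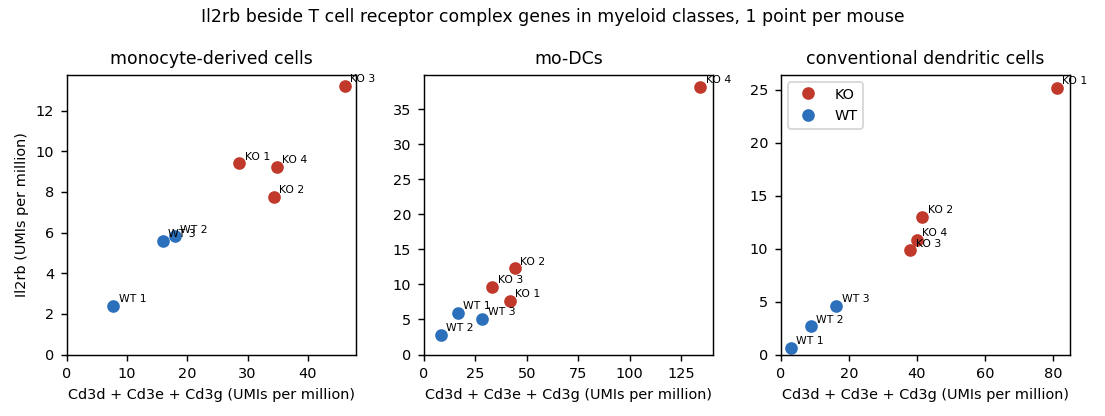
Il2rb (y axis) against the sum of Cd3d, Cd3e and Cd3g (x axis), both in CPM, in monocyte-derived cells, mo-DCs and conventional dendritic cells, with 1 point per mouse, red for KO and blue for WT. The KO mice lie higher on both axes in each panel, and KO mouse 4 stands apart in mo-DCs and KO mouse 1 in conventional dendritic cells.

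On the ligand side, Il15 in the cells named cDC1 was at 6.68, 7.27, 11.2 and 7.81 in the KO mice and 15.7, 12.6 and 15.8 in the WT mice. The groups did not overlap, and the adjusted p did not pass (log2 fold change of KO over WT -0.85, SE 0.21, unadjusted p = 0.00163, adjusted p = 0.562). In Ccr7-high dendritic cells, where Il15 was highest, the log2 fold change was -0.40 ± 0.20 (SE, adjusted p = 0.550), and over all conventional dendritic cells it was -0.40 ± 0.15 (SE, adjusted p = 0.697). In monocyte-derived cells Il15 had a log2 fold change of -0.40 ± 0.27 (SE, adjusted p = 0.920) and Il18 one of -0.27 ± 0.40 (SE, adjusted p = 0.963). KO mouse 1 had Il18 at 7.69 there, against 28.9, 31.9 and 31.6 in the other KO mice, and without it the log2 fold change was 0.04 ± 0.18 (SE, adjusted p = 0.957). In mo-DCs Il21r was at 106, 93.1, 101 and 99.8 in the KO mice and 226, 122 and 99.1 in the WT mice, with overlap and a log2 fold change of -0.63 ± 0.24 (SE, adjusted p = 0.604). WT mouse 1 was the highest, and without it the log2 fold change was -0.20 ± 0.15 (SE, adjusted p = 0.981). Without the filter on low counts, with all mice, the adjusted p of this pair in edgeR was 0.0218. In that setting 0.264% of all pairs of gene and class were called, against 0.0111% with the filter. Il2rg was at 226, 212, 227 and 242 in the KO mice and 323, 267 and 288 in the WT mice in Ccr7-high dendritic cells and at 250.5, 242, 168 and 211 in the KO mice and 317, 264 and 297 in the WT mice in pDCs. Neither pair overlapped, and their log2 fold changes were -0.46 ± 0.15 (SE, adjusted p = 0.415) and -0.38 ± 0.17 (SE, adjusted p = 0.754).

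In microglia, the cells in which the driver acts, 3 of the 10 genes passed the filter on low counts. Il15ra was at 139, 137 and 111 in the 3 KO mice with at least 20 microglia and 68.6, 53.1 and 87.5 in the WT mice. The groups did not overlap, and the pair was not called (log2 fold change of KO over WT 0.87, SE 0.31, unadjusted p = 0.00790, adjusted p = 0.238). The KO values rested on 26, 7 and 20 UMIs. The share of microglia named low-quality or activated, the type with more Il15ra, was also higher in KO. It was 66.7%, 66.7% and 69.4% in those KO mice and 61.1%, 47.8% and 59.4% in WT. Within these KO mice the highest share and the lowest Il15ra were both in KO mouse 4. Within the WT mice the lowest share and the lowest Il15ra were both in WT mouse 2. The highest share was in WT mouse 1 and the highest Il15ra in WT mouse 3. The part of this share in the Il15ra levels was not tested. The summed T cell markers were 42.9 to 139 in KO and 10.8 to 41.1 in WT, and their part was not tested. Within the low-quality or activated type, which 2 KO mice held at 20 cells or more, the log2 fold change was 0.51 ± 0.40 (SE, adjusted p = 0.879). Il2rg and Il21r in microglia had log2 fold changes of 0.15 ± 0.30 (SE, adjusted p = 0.880) and 0.28 ± 0.28 (SE, adjusted p = 0.731).

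A list of 31 other genes of the 2 axes was read beside the 10, from ligands and partner chains to the JAK and STAT proteins, their feedback inhibitors and the inflammasome. None of its 192 tested pairs of gene and class was called in edgeR, and none in DESeq2. At an unadjusted p under 0.05 there were 13 (6.77%), 9 higher and 4 lower in KO, near the 6.64% over all genes, and 5 of the 13 met the filter only through the group in which they were higher. In microglia, where 11.8% of all genes were at an unadjusted p under 0.05, these were, as log2 fold changes of KO over WT, Nlrp3, the inflammasome sensor, at 1.12 ± 0.29 (SE, adjusted p = 0.0853), Pycard, its adaptor, at -0.98 ± 0.26 (SE, adjusted p = 0.0973), Myd88, the adaptor of the IL-18 receptor, at -1.10 ± 0.41 (SE, adjusted p = 0.266), and Crlf2, a receptor chain that pairs with the IL-7 receptor alpha chain, at 0.84 ± 0.35 (SE, adjusted p = 0.334). In conventional dendritic cells they included Il18rap, with a log2 fold change of 1.73 ± 0.53 (SE, adjusted p = 0.661), and Myd88, with -0.36 ± 0.12 (SE, adjusted p = 0.697). Myd88 in microglia met the filter only through the WT mice and Il18rap in conventional dendritic cells only through the KO mice. No gene of the list was at an unadjusted p under 0.05 in the T cell or NK cell class. Over single cell types it was 19 of 455 (4.18%), against 5.43% of all pairs. Of these 19, 6 met the filter only through the group in which they were higher. None was called, against 0.0166% of all pairs.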

How the data were processed

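Single-cell RNA-seq libraries of 7 mice (4 KO, 3 WT) were read from the deposited matrix. Per the submitters' processing notes, FastQC 0.11.5, STAR 2.7.10a and STARsolo were used with the mm10 genome. The values the authors deposited are expected counts, namely UMIs per gene and cell, not scaled; 7.51% of those above 0 were not whole (tolerance 1e-06), for a reason not given in the sources used here. The sums tested were rounded to whole numbers, which departs from the planned test only in the rounding. The deposited cell table also gives the percent of UMIs from mitochondrial and ribosomal genes and the detected gene counts per the file headers, which were not used here. Cell type names are those of the deposited cell table. Filters on cells, the annotation and the handling of doublets were not given in the sources used here, and no cells were removed.

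For each mouse, UMIs were summed by cell type and class where the mouse had at least 20 cells, and genotypes were compared where each had at least 2 such mice. Sums were fitted with edgeR 4.0.16 (TMM scaling, filterByExpr, robust quasi-likelihood test; R 4.3.3, limma 3.58.1) without covariates, with p-values adjusted over all genes of a fit by the Benjamini-Hochberg method. DESeq2 1.42.0, RLE scaling, no filter on low counts, a replicate block, a minimum of 50 cells, whole values only, no proliferating cells and leaving out each mouse were alternatives. Code was tested on simulated data. Shares of cells were taken after thinning to 2000 UMIs. Promoter windows are from RefSeq (GRCm38.p6), gene positions from GENCODE M21.

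All 10 genes were named with levels. Genotype values were given for pairs at an unadjusted p under 0.05, and for each gene the 3 nearest profiles among genes reaching 20 CPM (UMIs per 1000000), of which 1 is not reported here. The 10 genes and the lists were chosen with earlier results of these data known.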

Additional observations from a re-analysis of the deposited data

Results flagged for a closer look

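Over the pairs of gene and class or cell type that were fitted, and the cell type in which each gene was highest, a sample far from the others of its group was found in 11 of 149 groups of 4 KO mice, and chance alone gives about 1 in 20. The groups share mice, and classes share cells with their cell types. KO mouse 1 had the lowest Il18 of its group in monocyte-derived cells, at 7.69 CPM, in Macrophages (P3), at 6.34, and in Macrophages (P5), at 6.95. It had the highest Il2ra in monocyte-derived cells, at 19.7 CPM, the highest Il18r1 in conventional dendritic cells, at 3.60, and the highest Il2rb in the cells named cDC2, at 68.4. KO mouse 4 had Il2rb at 38.2 CPM in mo-DCs, above the other 3 KO mice. KO mouse 2 was the lowest of its group in Il2rb in T cells, at 565 CPM, in Il7r in Th1 cells, at 189, and in Tregs, at 368, and in Il15ra in naive or early activated CD8+ T cells, at 11.5. The WT groups hold 3 mice and were not examined for this.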

How the results depend on the processing

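No fold change of the pairs at an unadjusted p under 0.05 turned its direction under the alternatives. These pairs were picked by that p in the same sums, so that a kept direction is no support for them. The log2 fold change of Il2rb in mo-DCs was 1.11 with the replicate block and 1.10 without KO mouse 4, against 1.91. Of 337 values of the picked pairs 327 kept their side of the threshold and 10 passed it. Among pairs not so picked, Il2 in T cells went from -1.28 to 0.03 without WT mouse 2. Without the filter on low counts edgeR called Il21r, Il2rb and Il18r1 in mo-DCs, Il21r and Il2rb in tumour or stromal cells, Il2rb in Macrophages (P5) and cDC1, and Il2ra in exhausted CD8+ T cells (adjusted p = 0.0212), and DESeq2 called Il2rb in conventional dendritic cells and in cDC1. The 240 mean levels compared moved by less than 1 SD. The 110 values compared for pairs of genes were ratios of the joint share to the product of the single shares. These ratios stayed within their intervals, also when counted without thinning. The joint shares themselves were not compared in this way. The unthinned joint share of Il2ra and Il2rb in Tregs, given above, lay above the interval of the thinned share. None of the 10 genes was called when a mouse was left out, with RLE scaling or with whole values only. DESeq2 called 1 in conventional dendritic cells and 1 over the cell types. Without the filter on low counts, 3 were called in mo-DCs and 2 in tumour or stromal cells (5 of 87 over the classes, against 0.264% of all pairs). Over the cell types it was 9 of 203, against 0.291%: the 8 pairs above and Il18r1 in cDC1 (adjusted p = 0.0283), on 1, 2 and 0 WT UMIs. Of the other genes of the 2 axes 3 of 249 were called, 1 each in microglia, mo-DCs and tumour or stromal cells. Leaving out a mouse gave 0 to 1 of those other genes in microglia, 1 without KO mouse 2. The causes were not tested.

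The number of all genes called moved most, from 0 in monocyte-derived cells, mo-DCs, conventional dendritic cells, T cells and B cells, 1 in NK cells, 2 in microglia, 3 in pDCs, 3 in tumour or stromal cells and 28 over the cell types. DESeq2 called 20, 34, 14, 35 and 3 in the first 5, 4 in NK cells, 6 in pDCs, 16 in tumour or stromal cells and 141 over the cell types. Without the filter on low counts it was 5, 182, 14, 3 and 14 in the first 5, 27 in NK cells, 41 in microglia, 38 in pDCs, 167 in tumour or stromal cells and 1159 over the cell types. With whole values only it was 4 in microglia, and with at least 50 cells 1 in pDCs. Leaving out a mouse gave 0 to 5 in monocyte-derived cells, 0 to 2 in mo-DCs, conventional dendritic cells and T cells, 0 to 3 in NK cells, 3 to 15 in microglia, 0 to 12 in pDCs, 0 to 25 in tumour or stromal cells and 23 to 126 over the cell types.

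With the replicate number as a block, all genes called were 3 in monocyte-derived cells, 8 in mo-DCs, 5 in conventional dendritic cells, 3 in T cells, 27 in B cells, 6 in NK cells, 17 in microglia, 40 in pDCs and 333 over the cell types, and none of the 10 genes was called. The labels do not say whether the numbers pair the mice. The deviations of same-numbered mice from their group means correlated at 0.01, -0.07 and -0.22 in T cells. Deviations within a group offset one another, so that these correlations cannot settle it. The block could not be fitted in tumour or stromal cells.

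Il2 levels and microglial values are limited by depth, at 351 UMIs and 414 cells. Without its 3 highest cells, an alternative chosen after seeing the data, the Il2 mean in proliferating CD4+ T cells and Tregs was 12.2.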
